A study of Mus musculus with 18 samples.

Results

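The genes described here keep the genome intact. They are 42 mouse genes of the DNA damage checkpoint and of DNA repair, chosen by name from those pathways. Where a gene had several probe sets, its brightest on average was taken, which left 18194 genes on the 18 arrays. Of the 42 genes, 41 had a probe set assigned to them alone (Xrcc2 was not analysed here). Bard1, the partner of Brca1 in a ubiquitin ligase, stayed below the limit set for testing, with signals of 53.5 to 102 over all mice, and 40 genes were tested among 14020 genes in all.

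The arrays measured total RNA of thymocytes or tumour masses from 18 mice that the design text calls independent, with 1 array per mouse. The 5 control mice are described as LckCre animals in the design text and as wild type in the sample labels, and which description holds was not settled. The 5 mice called before transformation and the 8 mice with lymphoma carried CD4Cre-ctnnbex3: Cre driven by Cd4 regulatory sequences removes, in thymocytes, the exon of the beta-catenin gene that marks the protein for degradation. Cre under this driver acts in the T lineage, so tumour stroma and other cells would keep the intact allele. The sources used here give neither strain nor age. The T-cell marker list was detected in every group, with a summed signal of 7 measured markers of 32592 to 36507 in controls, 28106 to 42304 before transformation and 12457 to 19685 in lymphomas, where all 7 fell against control and Ptcra was at the floor in all 8. Summed signals of 6 myeloid markers were 2627 to 3514, 2643 to 4665 and 4454 to 15214 in the same order, and those of 5 stromal markers were 586 to 742, 712 to 1414 and 683 to 4938. Those of 7 granulocyte markers were 3217 to 9828, 1410 to 2277 and 1699 to 4253. Against control, 3 of the 7 T-cell markers fell and 1 rose before transformation, while 5 of the 7 granulocyte markers fell and none rose; 1 of 6 myeloid and 1 of 4 tested stromal markers rose and none fell. In lymphomas 4 myeloid markers rose and 1 fell against control, 3 of 4 stromal markers rose and none fell, and 5 of 7 granulocyte markers fell and none rose. The part of these cells in the results below was not tested.

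Signals are linear probe-set intensities. Values under 53.5, the 20th percentile of all values, were set to that floor before log2 was taken. A gene is said to rise or fall when its limma adjusted p, corrected over all 14020 genes, is under 0.05. In bulk RNA fewer cells of a type and less RNA per cell cannot be told apart. Array medians lay between 125 and 166. The mean log2 signal of control probe sets for spiked-in RNA was 8.85 to 9.01 in controls and 8.87 to 9.17 before transformation. In lymphomas it was 8.44 to 8.80, below every array of the other groups. No rescaling was applied in the main fits, and the part of this offset in the results was not tested. By Xist and Eif2s3y, a gene of the Y chromosome, 2 controls and 6 lymphomas were female, while lymphoma 4 held both signals. By the same signals 3 controls, all 5 mice before transformation and 1 lymphoma were male. Sex thus went largely with group from before transformation to lymphoma, and its part in that step was not tested. On the second principal component of all genes lymphomas 1 and 2 stood apart at -48.9 and -44.0, the other lymphomas lying between 6.57 and 18.5. Mice 1 and 2 before transformation were also lowest there, at -11.5 and -26.3 against 12.5 to 22.7. Values within mice numbered 1 and 2 and within those numbered 3 and up are therefore given for the main results. The 2 female controls were numbers 1 and 2, so these sets differ in sex too. Before transformation against control, the set of numbers 1 and 2 compares males with females. Values in mice with female signals alone rest on the same 2 controls.

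Cells answer DNA damage in layers. The kinases Atm and Atr sense broken or single-stranded DNA and pass the signal to Chek1 and Chek2, which hold the cell cycle. Separate machines then mend each kind of lesion: nucleotide excision repair removes bulky and ultraviolet lesions, base excision repair removes small base damage such as uracil and oxidised guanine, mismatch repair corrects copying errors, and homologous recombination with the Fanconi pathway restores broken or crosslinked DNA. In the thymus, T-cell precursors cut their own antigen-receptor genes and divide rapidly, and many recombination and mismatch repair genes are transcribed as cells enter S phase.

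The largest change among the 40 genes was that of Ddb2, a damage recognition gene of nucleotide excision repair that fell at both steps. Ddb2, which binds ultraviolet lesions in chromatin and hands them on to Xpc, had signals of 811, 797, 863, 765 and 643 in controls 1 to 5. Before transformation they were 391, 415, 455, 540 and 444. Lymphomas ran from 108 to 228 with a median of 155, so the 3 groups did not overlap at any step. Ddb2 fell by 0.79 ± 0.11 (SE) on the log2 scale before transformation (1.73-fold, n = 5 per group, limma adjusted p = 0.000622). From there to lymphoma it fell by 1.48 ± 0.18 (2.79-fold, 8 against 5 mice, limma adjusted p = 4.02e-05), to 4.83-fold below control (limma adjusted p = 2.65e-07). Ordered by this difference from control, Ddb2 was number 98 from the lowest of the 14020 genes. The difference of lymphomas from control was -2.24 within mice numbered 1 and 2, -2.26 within those numbered 3 and up and -2.38 in mice with female signals alone (2 controls and 6 lymphomas, limma adjusted p = 0.00108). A second Ddb2 probe set gave -0.81, -1.71 and -2.52 in the 3 comparisons.

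Xpc, which recognises distorted DNA and starts repair across the whole genome, fell before transformation and was low in lymphomas. Its signals were 331, 308, 386, 381 and 393 in controls and 267, 223, 226, 215 and 246 before transformation. In lymphomas they were 125 to 258, with a median of 195. All CD4Cre-ctnnbex3 mice, with or without tumour, were below the lowest control, while the lymphomas overlapped the mice before transformation. Xpc fell by 0.61 ± 0.11 before transformation (limma adjusted p = 0.00319) and by 0.95 ± 0.16 in lymphomas against control (1.93-fold, limma adjusted p = 0.000341), and the step between the CD4Cre-ctnnbex3 groups was -0.34 ± 0.16 (limma adjusted p = 0.122). Within mice numbered 1 and 2 the difference before transformation was -0.39 (limma adjusted p = 0.248) and within those numbered 3 and up -0.76 (0.00675). The difference of lymphomas from control was -0.50 (0.117) and -1.15 (0.00107) in these sets, and -0.70 (0.106) in mice with female signals alone. The 2 other genes of this pathway did not move with them on the probe sets used. Xpa, which verifies the lesion, differed by -0.29 ± 0.15 before transformation and by -0.07 ± 0.17 between lymphomas and control (limma adjusted p = 0.292 and 0.789). Ercc1, a subunit of the nuclease that cuts beside the lesion, differed by 0.18 ± 0.17 and 0.12 ± 0.13 (0.665 and 0.484). Other Ercc1 probe sets differed by 0.36 ± 0.12, -0.11 ± 0.11 and -0.27 ± 0.11 between lymphomas and control. The direction for Ercc1 thus depends on the probe set. The further repair genes listed below include others of this pathway. Of these, Gtf2h4 fell in lymphomas against control, differing by -1.63 ± 0.34 (limma adjusted p = 0.00166). Rad23b rose by 0.62 ± 0.14 from before transformation to lymphoma (limma adjusted p = 0.00368).

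**Figure D1:**
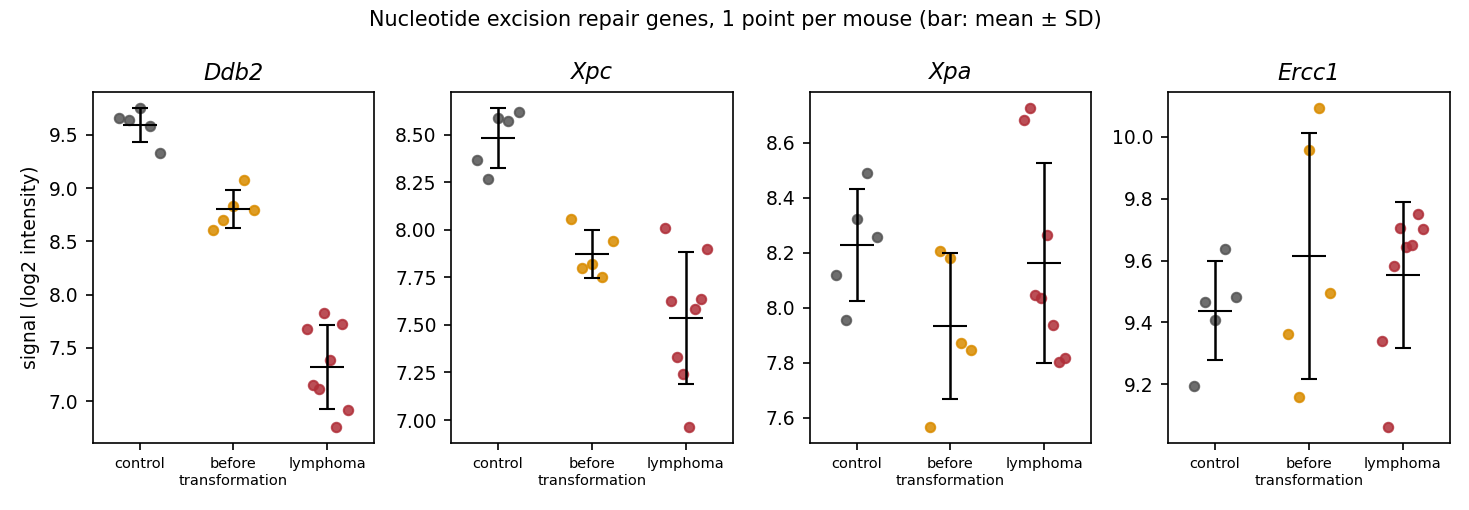
Log2 signal (y axis) of 4 nucleotide excision repair genes in control mice, mice before transformation and lymphomas; each point is 1 mouse, and the bar gives the mean ± SD. Ddb2 drops at both steps with no overlap, Xpc lies below control in both CD4Cre-ctnnbex3 groups, and Xpa and Ercc1 overlap in all 3 groups.

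Of the 6 genes of base excision and single-strand break repair, 4 rose from before transformation to lymphoma, where 16% of all genes tested rose. Of these 4, 3 were also called higher than control, where 17.4% of all genes tested were. Apex1, Ung and Parp1 were higher in all 8 lymphomas than in all 5 mice before transformation. Of the 40 genes, these 3 were higher with no overlap in this comparison, where 6.67% of all genes tested were. Apex1 and Ung also exceeded every control in all 8 lymphomas, as did 8.21% of all genes tested. Promoter windows of Apex1, Parp1 and Ung, which rose with no overlap, are shown with that of Msh6, which moved with a different order (below). Sequences are RefSeq promoters of build GRCm38.p6, from 250 bases before to 50 after the annotated start, 5′ to 3′ on the gene's strand. Capitals mark CACGTG (the E-box letters read by Myc and related factors) in Apex1 and Parp1 and TTTCCCGC (E2F-type letters, known from S-phase genes) in Msh6. No capital stands in the Ung window, and the window of Ogg1, which also rose and is not shown, held neither kind of letters.
Apex1, chr14:50924699-50924998, plus strand: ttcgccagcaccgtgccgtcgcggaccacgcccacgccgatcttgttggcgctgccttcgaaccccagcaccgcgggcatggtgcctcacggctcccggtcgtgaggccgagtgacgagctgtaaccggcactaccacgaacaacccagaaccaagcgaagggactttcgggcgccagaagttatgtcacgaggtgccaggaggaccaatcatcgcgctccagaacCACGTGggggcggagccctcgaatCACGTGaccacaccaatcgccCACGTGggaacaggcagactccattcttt
Parp1, chr1:180568641-180568940, plus strand: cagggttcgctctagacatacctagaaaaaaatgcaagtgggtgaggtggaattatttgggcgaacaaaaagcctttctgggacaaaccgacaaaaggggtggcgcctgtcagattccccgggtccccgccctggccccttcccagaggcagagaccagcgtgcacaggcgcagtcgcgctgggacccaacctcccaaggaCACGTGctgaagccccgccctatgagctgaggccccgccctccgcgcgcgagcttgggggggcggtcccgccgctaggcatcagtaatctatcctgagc
Ung, chr5:114130185-114130484, plus strand: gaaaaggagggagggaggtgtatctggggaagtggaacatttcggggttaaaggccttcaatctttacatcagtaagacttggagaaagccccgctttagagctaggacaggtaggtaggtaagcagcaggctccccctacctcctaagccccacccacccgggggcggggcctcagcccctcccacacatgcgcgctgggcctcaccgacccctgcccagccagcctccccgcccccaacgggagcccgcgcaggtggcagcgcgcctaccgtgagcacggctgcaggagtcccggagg
Msh6, chr17:87974800-87975099, plus strand: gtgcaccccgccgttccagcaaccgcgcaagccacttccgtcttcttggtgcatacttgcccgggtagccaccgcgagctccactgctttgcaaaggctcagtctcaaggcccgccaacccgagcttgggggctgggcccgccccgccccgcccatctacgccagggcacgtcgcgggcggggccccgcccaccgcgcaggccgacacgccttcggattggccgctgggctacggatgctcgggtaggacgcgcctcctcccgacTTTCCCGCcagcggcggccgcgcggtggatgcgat

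The table held 35 promoters of 33 of the 42 genes. The letters CACGTG, searched on both strands, occurred in 3 of these 35 promoters (8.57%), those of Apex1 (3 times), Parp1 and Parp2, and in 9.21% of 14272 promoters of all genes tested. E2F-type letters (TTTGGCGC, TTTCCCGC, TTTCGCGC or TTTGCCGC, both strands) occurred in 9 of the 35 (25.7%), against 3.6% of the promoters of all genes tested. These belonged to Bard1, Brca2, Chek2, Fancg, Mdc1, Msh3, Msh6 and both promoters of Rad51c, and overlapped each other in Msh3. CCAAT, searched the same way, occurred in 19 of the 35 (54.3%) and in 37.2% of the promoters of genes tested. The median GC content was 60.0% in the 35 promoters and 59.7% over genes tested. A match describes letters, not a bound factor.

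Apex1, the endonuclease that cuts DNA where a base has been removed, had signals of 936, 1078, 803, 1026 and 942 in controls. Before transformation they were 795, 1024, 1001, 868 and 649. Lymphomas ran from 1218 to 2366 with a median of 1446, and lymphomas 1 and 2 were the highest at 2340 and 2366. Apex1 rose by 0.90 ± 0.18 from before transformation to lymphoma (1.86-fold, limma adjusted p = 0.00157) and stood 1.67-fold above control (0.00232). The step was 1.38 within mice numbered 1 and 2 and 0.76 within those numbered 3 and up, and it was 0.71 with lymphomas 1 and 2 left out (limma adjusted p = 0.000996).

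Ung, the glycosylase that removes uracil from DNA, had signals of 314, 306, 268, 219 and 316 in controls. Signals before transformation were 219, 186, 274, 181 and 218. In lymphomas they were 325 to 478, with a median of 375. Ung rose by 0.89 ± 0.13 in lymphomas over mice before transformation (1.86-fold, limma adjusted p = 0.000188), by 0.86 and 0.88 within the 2 sets of mouse numbers, and by 0.49 ± 0.13 over control (0.00725). The difference from control was 0.24 within mice numbered 1 and 2 (0.238) and 0.62 within those numbered 3 and up (0.0127). Before transformation it differed from control by -0.40 ± 0.15, which did not pass (0.120).

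Parp1, which detects strand breaks and builds poly(ADP-ribose) chains there, had signals of 1646, 1683, 1185, 1177 and 1628 in controls and 1242, 1026, 1247, 1000 and 1000 before transformation. The lymphomas lay close together, from 1671 to 2246 with a median of 1983. Parp1 rose by 0.83 ± 0.10 from before transformation to lymphoma (1.78-fold, limma adjusted p = 2.51e-05, 0.82 and 0.85 within the 2 sets) and by 0.43 ± 0.11 over control (0.00591), where lymphoma 7 lay within the range of the controls. Against control the difference was 0.25 within mice numbered 1 and 2 (0.0569) and 0.56 within those numbered 3 and up (0.00673). Its relative Parp2 differed by -0.19 ± 0.16 between lymphomas and mice before transformation (limma adjusted p = 0.390).

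Ogg1, the glycosylase for oxidised guanine, rose by 0.41 ± 0.13 at the same step (limma adjusted p = 0.0284) from signals of 203, 173, 230, 136 and 205 to a median of 256 (208 to 277). These ranges overlapped, and the step did not pass without before transformation 2 (0.38, limma adjusted p = 0.0573) or 4 (0.29, 0.0898), nor within either set of mouse numbers. Against control Ogg1 differed by 0.10 ± 0.11. Xrcc1, the scaffold that gathers the enzymes of single-strand break repair, differed by less than 0.05 in each comparison, the largest being -0.04 ± 0.13. In mice with female signals alone, 2 controls against 6 lymphomas, none of Apex1 (0.72), Ung (0.33) and Parp1 (0.23) passed against control (limma adjusted p = 0.109, 0.292 and 0.310).

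**Figure D2:**
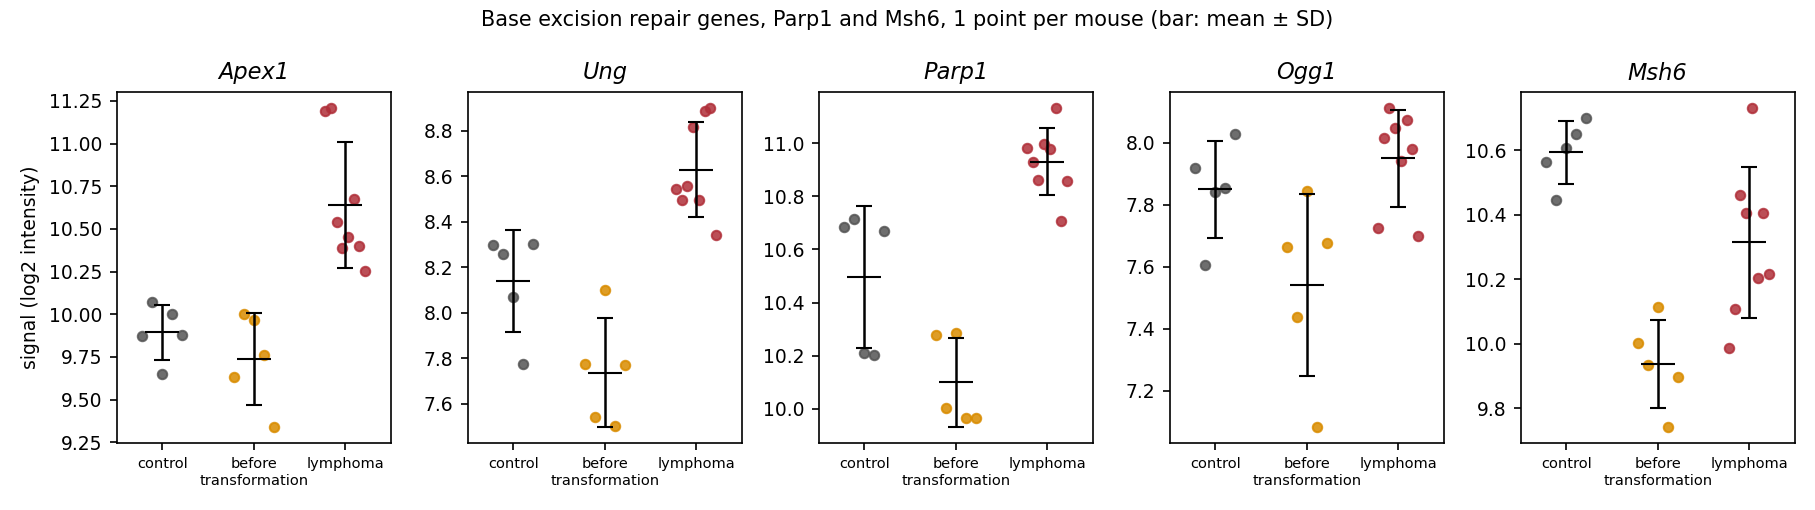
Log2 signal (y axis) of Apex1, Ung, Parp1, Ogg1 and Msh6 in control mice, mice before transformation and lymphomas; each point is 1 mouse, and the bar gives the mean ± SD. All 8 lymphomas lie above all 5 mice before transformation for Apex1, Ung and Parp1, and Msh6 is lowest before transformation.

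Of the 3 mismatch repair genes tested, Msh6 alone was called, on the probe sets used. Over all genes tested, 6.18% fell before transformation and 16% rose from there to lymphoma. Msh6, the partner that recognises single-base mismatches, had signals of 1514, 1393, 1561, 1607 and 1662 in controls and 1026, 978, 1108, 857 and 953 before transformation, with no overlap. Lymphomas spanned both, from 1015 to 1700 with a median of 1272. Msh6 fell by 0.66 ± 0.09 before transformation (1.58-fold, limma adjusted p = 0.000344), with -0.54 and -0.74 within the 2 sets of mouse numbers. It rose by 0.38 ± 0.12 from there to lymphoma (limma adjusted p = 0.0275); both steps share the 5 mice before transformation. The second step was 0.08 within mice numbered 1 and 2 (0.703) and 0.49 within those numbered 3 and up (0.0157), and it did not pass without before transformation 4 (0.33, limma adjusted p = 0.0799) or 5 (0.37, 0.0616). Lymphomas differed from control by -0.28 ± 0.11 (0.0660). Msh3, the partner for larger loops, differed by -0.21 ± 0.12 and then 0.23 ± 0.14, and did not pass. Pms2, a subunit of the nuclease that acts next, did not pass either, at -0.04 ± 0.15 and 0.05 ± 0.19. Another Msh3 probe set differed by -0.54 ± 0.18 and then 0.92 ± 0.18, and a further one by -0.10 ± 0.14 and -0.31 ± 0.12. Other Pms2 probe sets differed by 0.09 and 0.10 before transformation and by -0.59 and -0.34 into lymphoma. For Msh3 and Pms2 the differences thus depend on the probe set.

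The kinases at the head of the checkpoint were not called in any comparison. Atm had signals of 420 to 573 in controls, 352 to 568 before transformation and 351 to 555 in lymphomas. Atr lay at 289 to 406, 299 to 418 and 93.0 to 588, the low value being that of lymphoma 6. Chek1, the kinase that restrains S phase, read 258 to 389 in controls, 188 to 382 before transformation and 144 to 573 in lymphomas. Its step into lymphoma was 0.53 ± 0.29 (limma adjusted p = 0.164), and it was 0.72 without lymphoma 6, where it passed (0.0162). Chek2 differed by 0.27 ± 0.12 at that step (0.0912), with lymphomas between 229 and 264.

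The complex that holds broken ends comprises Mre11a, Rad50 and Nbn. Nbn, which brings Atm to the break, had signals of 174, 149, 110, 122 and 141 in controls and 122, 128, 115, 71.9 and 91.1 before transformation. In lymphomas it ran from 94.6 to 237 with a median of 176, and overlapped both other groups. It rose by 0.70 ± 0.20 from before transformation to lymphoma (1.63-fold, limma adjusted p = 0.0149; 0.0503 without before transformation 4). Mre11a, the nuclease, had signals of 254 to 408 in controls, 275 to 446 before transformation and 352 to 615 in lymphomas. It rose by 0.42 ± 0.15 at this step and by 0.44 ± 0.16 over control (limma adjusted p = 0.0472 and 0.0413). Its second probe set differed by -0.19 and -0.08 in the same comparisons, so the direction for Mre11a depends on the probe set. Rad50 differed by 0.09 ± 0.19 (0.746).

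Of 5 chromatin factors around a break, 2 fell in lymphomas against control, where 22.7% of all genes tested fell. None was called in the other comparisons. H2ax, the histone variant phosphorylated beside breaks, had signals of 2791 to 3473 in controls, 1973 to 2822 before transformation and 2052 to 2899 in lymphomas. It fell by 0.25 ± 0.09 in lymphomas against control (limma adjusted p = 0.0331), and the difference was -0.09 after quantile normalization (0.499). Rnf8, the ubiquitin ligase recruited next, read 313 to 437 in controls, 247 to 386 before transformation and 259 to 344 in lymphomas. It fell by 0.30 ± 0.11 in lymphomas against control (0.0356), and the difference was -0.19 after quantile normalization (0.195). Before transformation H2ax and Rnf8 differed from control by -0.34 ± 0.10 and -0.31 ± 0.15, which did not pass (0.0589 and 0.269). From there to lymphoma they differed by 0.09 ± 0.10 and 0.01 ± 0.13. Mdc1, Rnf168 and Trp53bp1, which read or spread these marks, differed by -0.18, -0.35 and 0.11 between lymphomas and control and did not pass.

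Of the 7 recombination genes tested, Rad54l and Brca1 rose from before transformation to lymphoma, where 16% of all genes tested rose. Rad51c fell in lymphomas against control, where 22.7% of all genes tested fell. Rad54l, the motor protein that works with the strand-exchange filament, had signals of 424, 372, 279, 326 and 415 in controls. It read 273, 351, 258, 179 and 197 before transformation and 311 to 685 in lymphomas, with a median of 372. Lymphomas and mice before transformation overlapped through number 2 of the latter, at 351. Rad54l rose by 0.74 ± 0.20 from before transformation to lymphoma (limma adjusted p = 0.0106), by 0.19 within mice numbered 1 and 2 (0.515) and by 1.04 within those numbered 3 and up (0.00643). Its next probe set gave a step of 0.32 that did not pass (0.119).

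Exo1, the exonuclease that resects ends and excises mismatched strands, went from 251, 336, 196, 178 and 169 to a median of 349 (299 to 536). It rose by 0.73 ± 0.18 (limma adjusted p = 0.00650). Brca1, which promotes end resection and loading of the recombinase, went from 295, 402, 226, 226 and 236 to a median of 400.4 (245 to 588), a rise of 0.56 ± 0.20 (0.0394). For both genes before transformation 2 was the highest of its group and overlapped the lymphomas. Within mice numbered 1 and 2 the steps were 0.42 (0.197) and 0.10 (0.768), and within those numbered 3 and up 0.97 and 0.83. Brca1 did not pass without before transformation 1, 3, 4 or 5 (limma adjusted p from 0.0553 to 0.103). None of Rad54l, Exo1 and Brca1 passed against control (0.19, 0.36 and 0.17). Exo1 did so after quantile normalization (0.48, limma adjusted p = 0.0166), and the next Brca1 probe set rose by 0.68 (0.000635).

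Rad51c, a recombinase paralogue, was low in most tumours. Its signals were 323, 243, 171, 189 and 224 in controls and 216, 281, 198, 152 and 118 before transformation. In 7 lymphomas they lay between 102 and 124, and lymphoma 7 read 263. Rad51c fell by 0.82 ± 0.22 in lymphomas against control (1.76-fold, limma adjusted p = 0.00729) and by 0.97 without lymphoma 7 (0.000186); the step from before transformation was -0.54 ± 0.24 and did not pass (0.0927), but did without lymphoma 7 (0.0107). The difference from control was -1.32 within mice numbered 1 and 2 and -0.55 within those numbered 3 and up (0.127). Brca2, Palb2, Rad52 and Xrcc3 differed by -0.12, 0.21, -0.23 and 0.09 between lymphomas and control and did not pass.

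Among Fanconi genes, Fanca and Fancg, both of the core complex, were lower in tumours than in controls. Fanca had signals of 484, 543, 541, 573 and 495 in controls and 613, 480, 690, 591 and 571 before transformation, and 265 to 513 in lymphomas with a median of 386. It fell by 0.59 ± 0.16 from before transformation (limma adjusted p = 0.00964) and by 0.44 ± 0.15 from control (0.0278), yet its other probe set differed by 0.11 in both comparisons, so this direction too depends on the probe set. Fancg fell by 0.37 ± 0.12 in lymphomas against control (0.0253), and was not called after quantile normalization (0.104). It read 283 to 392 in controls, 238 to 298 before transformation and 205 to 335 in lymphomas. Before transformation Fancg differed from control by -0.29 ± 0.11 (0.153), and the step from there to lymphoma was -0.08 ± 0.12. Fancd2 and Fanci, the pair that the core complex ubiquitinates, differed from control by -0.42 ± 0.17 and -0.29 ± 0.12 before transformation and did not pass (0.165 and 0.189), although every mouse before transformation lay below every control for Fanci. On the probe sets used, Fancc and the helicases Blm and Wrn were not called in any comparison. They differed by 0.19, -0.24 and -0.17 between lymphomas and control. From before transformation to lymphoma Fancc differed by 0.10 ± 0.16, and its other probe sets by -0.49 ± 0.17 and 0.41 ± 0.19. The direction for Fancc thus depends on the probe set.

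Counted together, 3 of the 40 genes fell before transformation (Ddb2, Xpc and Msh6) and none rose, where 10.5% of all genes tested were called, 6.18% lower and 4.36% higher. With Fanci, 4 genes were lower and none higher with no overlap, as were 6.24% and 4.32% of all genes (10.6% in all). At an unadjusted limma p under 0.05 the 40 genes gave 13 in either direction, and all genes gave 2933 of 14020. Their median log2 difference was -0.22, and 34 of 40 were negative, beside a median of -0.02 and 7441 of 14020 negative over all genes tested. With the next highest probe set for the 23 genes that had one, the median of the 40 was -0.12 and 30 were negative. With the mean of all probe sets it was -0.18 and 33 were negative. From before transformation to lymphoma 10 rose and 2 fell, where 34.4% of all genes were called, 16% higher and 18.3% lower; the median was 0.12 beside -0.03, and 28 were positive. No overlap was seen for 3 that were higher and 1 that was lower (Ddb2), beside 6.67% and 8.84% of all genes (15.5% in all). Without before transformation 4 the rises numbered 5 and within mice numbered 1 and 2 they numbered 4, where 26.8% and 18.3% of all genes were called in either direction. Between lymphoma and control 4 rose and 7 fell, where 40.1% of all genes were called, 17.4% higher and 22.7% lower, and the median was -0.01 beside -0.03. Apex1 and Ung were higher and Ddb2 and Xpc lower with no overlap, beside 8.21% and 12% of all genes (20.2% in all). After quantile normalization, which moved the median of all genes from -0.03 to 0.08, these counts were 7 and 3, and they were 7 and 4 with arrays centred on their medians. In either direction 7.5%, 30.0% and 27.5% of the 40 genes were called in the 3 comparisons, and 23 of the 40 were called in none.

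**Figure D3:**
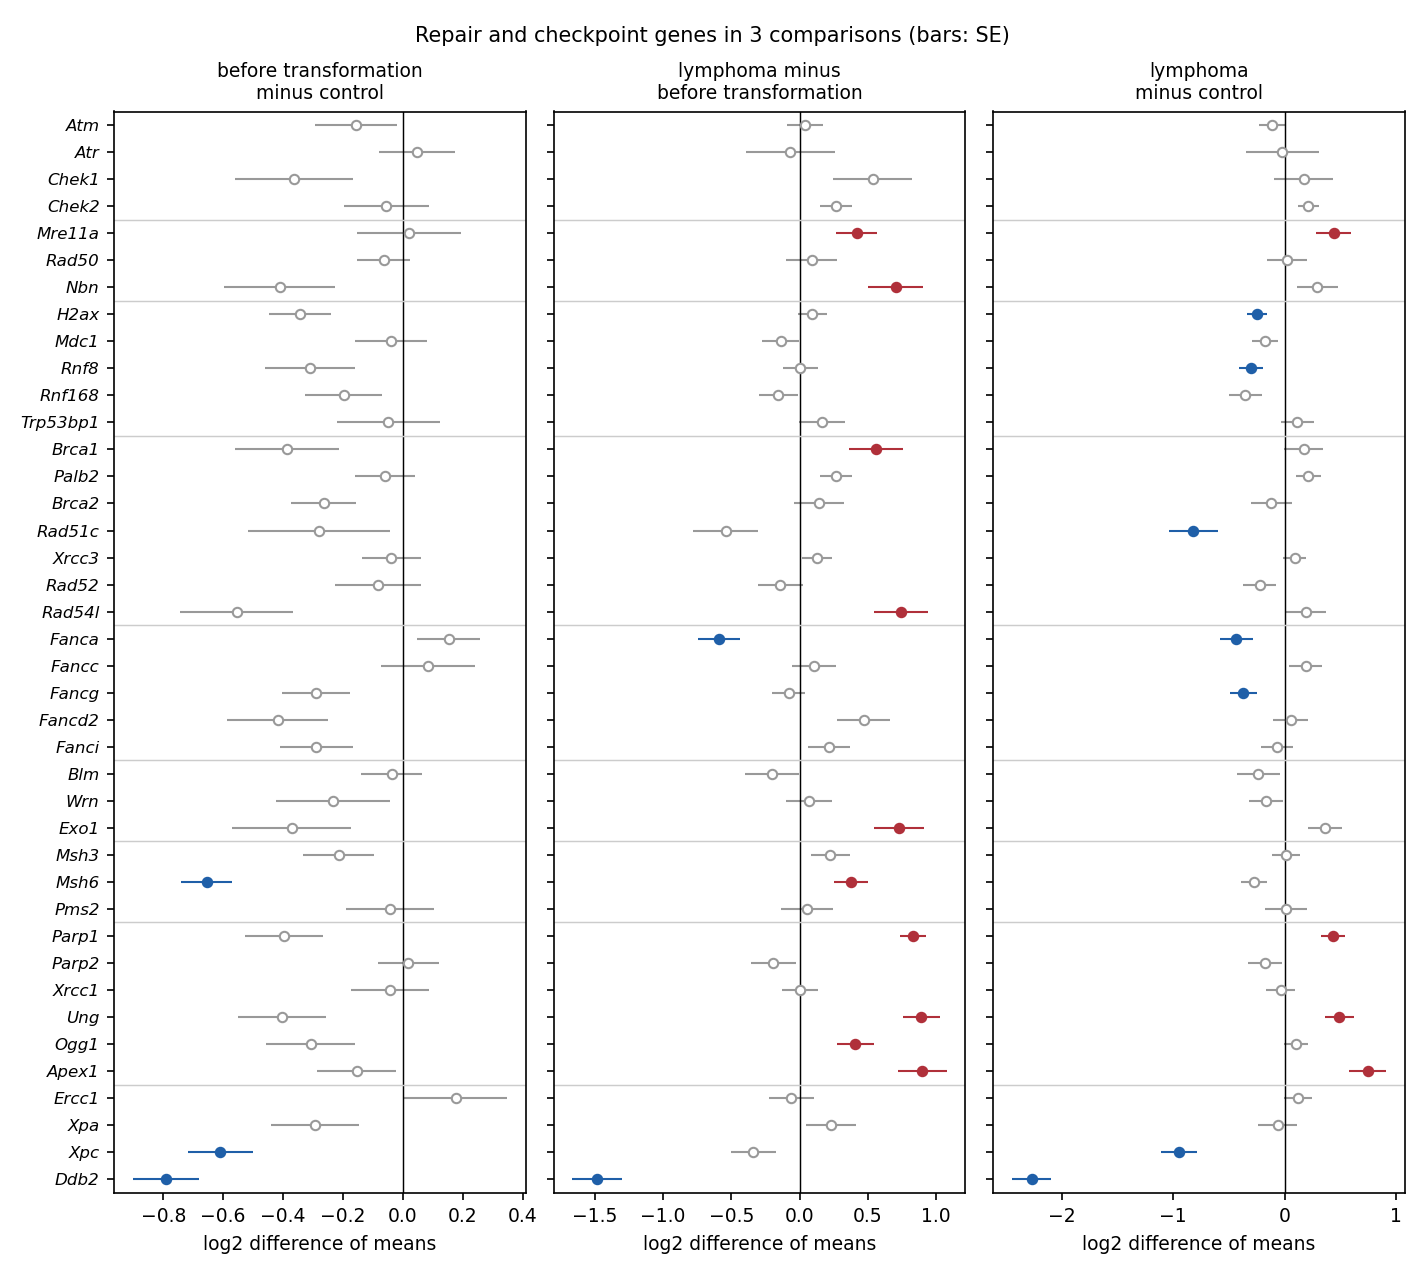
Difference of mean log2 signal (x axis) for the 40 genes tested, grouped by role, in 3 comparisons; bars are SE, filled blue points fell, filled red points rose and open points did not pass. The x axes differ in range, and Ddb2 is the lowest point in all 3 panels.

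Replication and mitosis genes were measured beside them. Over all genes tested, 6.18% fell and 4.36% rose before transformation, and 16% rose and 18.3% fell from there to lymphoma. Of 19 replication genes tested 5 fell and none rose before transformation (median -0.38), and 7 rose and 1 fell from there to lymphoma (median 0.37). Of 17 mitosis genes none was called before transformation (4 at an unadjusted limma p under 0.05, median -0.33), and 2 rose into lymphoma (median 0.15). Mki67, a marker of cycling cells, and Mcm2, a subunit of the replicative helicase, were called in no comparison, and differed by -0.38 and -0.11 before transformation and by -0.36 and 0.02 after it. The mean log2 signal of the 41 repair and checkpoint probe sets lay between 8.51 and 8.65 in controls, 8.25 and 8.51 before transformation and 8.20 and 8.77 in lymphomas. Before transformation 4 and 5 were the lowest of their group for both the repair mean and the replication mean, and lymphoma 6 was the lowest tumour and lymphoma 7 the highest for the repair, replication and mitosis means alike. The part of proliferation in the repair gene differences was not tested.

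**Figure D4:**
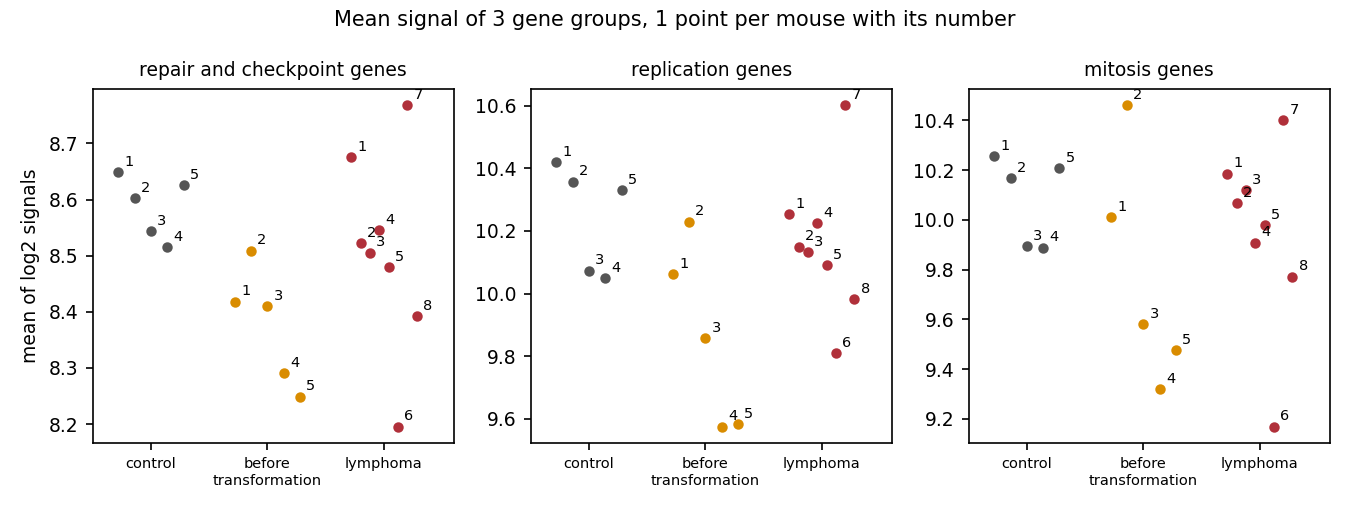
Mean of log2 signals (y axis) of 41 repair and checkpoint genes, 19 replication genes and 17 mitosis genes; each point is 1 mouse, labelled with its number. Lymphoma 7 is the highest and lymphoma 6 the lowest lymphoma in all 3 panels.

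The spread among mice was widest in tumours. The median SD of the 40 genes was 0.17 in controls, 0.24 before transformation and 0.28 in lymphomas, and over all genes tested it was 0.19, 0.24 and 0.29. Lymphoma 6 was the lowest of the 8 tumours for 19 of the 40 genes, while it was lowest for 21.3% of all genes tested. They included Atr (93.0 against 341 in the next lowest tumour), Chek1 (144 against 288), Blm (251 against 450), Brca2, Rad50 and Fancd2. Lymphoma 7 was the highest for 15 genes and lymphoma 1 for 13, and they were highest for 15.1% and 22.8% of all genes. Lymphoma 6 was not low throughout: it was the highest tumour for Parp1, at 2246, and for Ung it read 473, with only lymphoma 7 higher at 478.

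**Figure D5:**
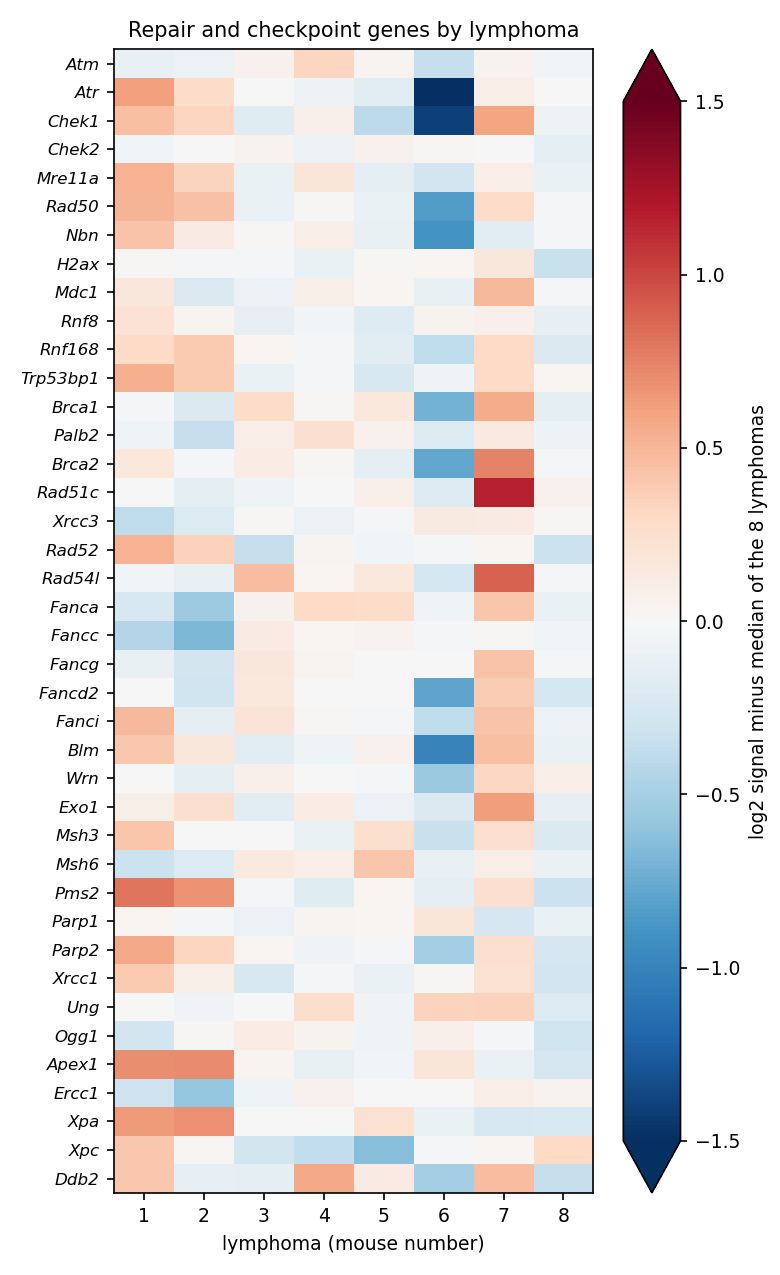
Log2 signal of each of the 40 genes in each lymphoma minus the median of the 8 lymphomas (colour, red higher and blue lower, with the scale ending at 1.5 in both directions). The column of lymphoma 6 is blue for Atr, Chek1, Rad50, Nbn, Brca2, Fancd2 and Blm, and that of lymphoma 7 is reddest at Rad51c and Rad54l.

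A further 93 repair genes were listed by pathway, and 77 of them were tested. Before transformation 3 rose and 6 fell, from there to lymphoma 14 rose and 13 fell, and between lymphoma and control 11 rose and 16 fell, with medians of -0.09, 0.01 and -0.11. In either direction these were 11.7%, 35.1% and 35.1% of the 77, beside 10.5%, 34.4% and 40.1% of all genes. Checkpoint genes of this list included opposite changes within the single-strand binding complex: Rpa1, its large subunit, rose by 0.74 ± 0.10 before transformation (limma adjusted p = 0.000377), and Rpa3, its small subunit, fell by 0.73 ± 0.11 (0.000888). Neil1, a glycosylase for oxidised bases, fell by 0.78 ± 0.14 before transformation (0.00298) and by 0.88 ± 0.14 in lymphomas against control (0.000139). Rad1, part of the clamp that activates Atr, rose by 1.27 ± 0.23 into lymphoma (0.000725), and Rad9a, another part, fell by 1.04 ± 0.24 (0.00384). Of the recombination and Fanconi genes Rad51d, another recombinase paralogue, fell by 0.78 ± 0.14 into lymphoma (0.000693) and Ube2t, the ubiquitin-conjugating enzyme for Fancd2, fell by 0.74 ± 0.16 before transformation (0.0115) and rose by 0.61 ± 0.17 after it (0.0111). In end joining Xrcc5 rose by 2.23 ± 0.26 into lymphoma (2.89e-05), while the ligase Lig4 rose by 0.72 ± 0.11 before transformation (0.00141) and fell by 1.03 ± 0.28 after it (0.0118). Among 7 damage-tolerance genes, which let replication pass lesions, 2 rose into lymphoma and 4 fell, beside 16% and 18.3% of all genes tested. Mad2l2 and Rad18 rose by 0.98 ± 0.14 and 0.91 ± 0.17 (limma adjusted p = 0.000161 and 0.000887). The polymerase Polh fell, differing by -0.60 ± 0.12 (0.00160).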

How the data were processed

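The table deposited by the authors holds linear probe-set intensity values for 45101 probe sets, which per the series design text came from dChip; its version, expression model and scaling are not stated in the labels or headers. Blanks made up 1.20% of the values. Blank and low values were set to the floor of 53.5 and log2 was taken with no rescaling. Probe sets with 1 gene symbol in the platform annotation were used (34958), with the highest mean per gene, and a gene was tested when 5 or more arrays exceeded an intensity of 109, the 40th percentile. Each comparison was fitted on its 2 groups with limma 3.58.1 in R 4.3.3 (intensity trend, Benjamini-Hochberg over all genes tested); all adjusted p-values come from this fit. The code was tested on simulated data. Members, lists and tests were chosen with earlier results of these data known. Named members are those called in any comparison, first those whose groups do not overlap; others are given by difference. Of the further repair lists, up to 3 genes per list and comparison with the smallest adjusted p could be named. The alternatives concerned scaling, floor, filter, probe set, samples in the fit, trend, mouse numbers and single mice; sex and leaving out lymphomas 1 and 2 were added after the data were seen. Mouse numbers shared across groups were checked as pairs: correlations of deviations ran from -0.14 to 0.41, so they were not taken as pairs. With 1 array per mouse, the number of mice limits the precision. Protein features could not be computed here.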

Additional observations from a re-analysis of the deposited data

Results flagged for a closer look

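In 123 sets of values, 41 genes in 3 groups, 8 had a mouse whose gap to the nearest other of its group exceeded Dixon's 95% limit, and chance flags about 1 in 20 sets. Of these, 4 were low values of lymphoma 6: Atr at 93.0 (next 341), Rad50 at 243 (405), Nbn at 94.6 (156) and Blm at 251 (450). Lymphoma 7 was high for Rad51c at 263 (next 124). Control 5 was high for Rad52 at 310.1 (next 253). Before transformation 5 was low for Fanci at 160.2 (next 207), and before transformation 4 for Wrn at 97.7 (next 157). Lymphoma 6 also had the lowest mean of replication and mitosis genes among the tumours (9.81 and 9.17), and its part in these values was not tested.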

How the results depend on the processing

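The falls of Ddb2 in all 3 comparisons and that of Msh6 before transformation passed under every alternative run for them. So did the rises of Apex1, Ung and Parp1 from before transformation to lymphoma. Adjusted p of Ddb2 ran up to 0.0282, 0.0207 and 0.00338. No alternative by sex was run from before transformation to lymphoma, where all 5 mice before transformation and 1 lymphoma were male. Before transformation, the members called lower numbered 6 with the mouse-number set as covariate (14% of all genes called in either direction) and 5 in mice numbered 3 and up (9.07%); leaving out single mice gave 3 to 7 (7 without before transformation 2, with 11.7% of all genes), and none was called higher in any. From before transformation to lymphoma, members called higher numbered 4 in mice 1 and 2 alone (18.3%), and 5 to 12 without single mice (5 without before transformation 4, with 26.8%, and 12 without lymphoma 6, with 33%), and those called lower 2 to 3. Between lymphoma and control, quantile normalization gave 7 higher and 3 lower (43.8%), centring 7 and 4 (38.8%), mice 1 and 2 alone 4 lower (28.3%), and mice with female signals 0 and 1 (13.8%); without single mice the ranges were 3 to 5 higher and 4 to 8 lower (4 without control 5, with 36.1%). With mouse number as a replicate block the counts higher and lower were 0 and 3, 9 and 3, and 4 and 6; the steps of Msh6 and Ogg1 into lymphoma (adjusted p = 0.0540 and 0.0613) and Ung and Rnf8 against control (0.0554 and 0.0728) then did not pass, while those of Chek1 and Rad51c (0.0100 and 0.0404) and Nbn against control (0.0335) did. With the next highest probe set, the step into lymphoma turned to -0.19 for Mre11a, 0.11 for Fanca, -0.49 for Fancc, -0.59 for Pms2 and 0.35 for Ercc1, and the difference from control to -0.081 for Mre11a, 0.11 for Fanca, -0.41 for Msh3 and -0.50 for Pms2. The mean of all probe sets gave -0.29 for Pms2 into lymphoma, and mice 1 and 2 alone 0.67 for Xpa against control; the cause was not tested. Signals near the floor, as for Bard1, limit what can be seen.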
